A study of Mus musculus with 2 samples.

Results

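Klk6-positive mature oligodendrocytes are myelin-forming cells of the central nervous system that carry RNA of the secreted protease Klk6 and little RNA of Ptgds, the prostaglandin D2 synthase. A nucleus was counted here when it had at least 500 unique molecular identifiers (UMIs, 1 per captured RNA molecule), at least 300 detected genes and under 5% mitochondrial UMIs. It also needed at least 4 UMIs summed over the oligodendrocyte genes St18, Mog, Mag, Prr5l and Mobp, at most 5 over the neuronal genes Snhg11, Rbfox3 and Syt1, and at most 1 over the leukocyte genes Ptprc, Inpp5d and Csf1r. Among these mature oligodendrocyte nuclei, members had at least 1 Klk6 UMI and at most 1 Ptgds UMI. The rule found 1698 members, 662 in the AEVs and 1036 in the PBS library, of 10837 mature oligodendrocyte nuclei (5831 and 5006) and 31743 nuclei of adequate quality (16949 and 14794).

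The nuclei came from spinal cords of wild-type C57BL/6 mice aged 6 to 8 weeks, frozen on day 7 after a contusion at thoracic level T10. A rod of 5 g and 1 mm diameter was dropped from 6 cm, and all mice received antibiotics. Mice of the AEVs group received athlete-derived extracellular vesicles, membrane particles shed by cells, as 100 µg of vesicle protein in 100 µL of phosphate-buffered saline (PBS) through a tail vein on each of 5 days. Mice of the PBS group received 100 µL of PBS alone on the same schedule, and no uninjured cord was analysed here. Each group is a single library made from the pooled nuclei of 3 mice, so a test across animals was not possible and differences between AEVs and PBS nuclei have no replicate check. Levels are UMIs per 1000000 UMIs of the same set of nuclei (CPM), and ratios between the libraries are AEVs over PBS, mostly on the log2 scale. Intervals, given in parentheses, are at 95% and describe counting error alone, not differences between mice or pools.

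Klk6 encodes kallikrein-related peptidase 6, a trypsin-like serine protease that can cleave myelin proteins and extracellular matrix and can activate protease-activated receptors. In mouse, mature oligodendrocytes that express Klk6 together with Anln and Hopx are known mainly from the white matter of the spinal cord. Another mature type, which expresses Ptgds, Grm3 and Il33, is known from grey matter as well as white matter. Both types make the same principal myelin proteins, so the contrast lies in other genes.

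The libraries held 81875882 UMIs (AEVs) and 82953601 UMIs (PBS) over all deposited barcodes. Members had a median of 2868 UMIs per nucleus in the AEVs and 3239.5 in the PBS library, more than the other mature oligodendrocyte nuclei with 2015 and 2312. All members together held 2060652 UMIs (AEVs) and 3561393 UMIs (PBS). The libraries shared 177 barcode sequences, and no barcode was a member in both. A doublet caller marked 13 AEVs and 21 PBS members, which were kept.

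The label was set beside its markers, some of which the rule itself used. All 10 oligodendrocyte markers examined were detected, with a summed level of 23830 CPM in AEVs members and 24890 CPM in PBS members. St18, Mog, Mag, Prr5l and Mobp are among the 10 and also in the rule, so selection set part of this result. Mbp, myelin basic protein and no gene of the rule, stood at 3158 CPM in AEVs members and 3224 CPM in PBS members. Of the 5 genes that mark the type, Klk6, St18, Mog and Prr5l are part of the rule. The fifth, Anln, an actin-binding protein of the septin scaffold in myelin, had 1276 CPM in AEVs members and 1005 CPM in PBS members, against 692 and 426 CPM in the other mature oligodendrocyte nuclei of the same libraries.

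Markers of other cells were low in members beside the oligodendrocyte sum, in part because the rule limits some of them. It limits Snhg11, Rbfox3 and Syt1 of the neuron set, Inpp5d and Csf1r of the microglial set and Ptprc of the T cell set. The largest difference between the libraries was that of the precursor markers. The 5 oligodendrocyte precursor markers Pdgfra, Cspg4, Vcan, Ptprz1 and Tnr summed to 31.5 CPM (65 UMIs) in AEVs members and 170 CPM (605 UMIs) in PBS members. In the PBS library 10 members with 12 or more of these UMIs held 423 of the 605, and the AEVs library had 0 such members. Marker sums for neurons were 363 and 340 CPM in AEVs and PBS members, and those for astrocytes were 297 and 352 CPM. Several sums were lower in members than in the other mature oligodendrocyte nuclei, which had 351 CPM (AEVs) and 614 CPM (PBS) of precursor, 480 and 450 CPM of neuron, and 805 and 1022 CPM of astrocyte markers. Microglial markers summed to 118 and 89.9 CPM, and macrophage markers to 13.1 CPM in AEVs members, where Cd74 was at 0, and 26.4 CPM in PBS members. Fibroblast markers summed to 45.1 CPM in AEVs members and 84.8 CPM in PBS members, and hemoglobin and other erythroid markers to 67.5 and 25 CPM. The sums for endothelial, mural, Schwann, ependymal and T cell markers lay between 5.34 and 26.2 CPM in either library. Where a result below moves with one of these sums, their part in the result was not tested.

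Klk6 and Ptgds chose the members, so their levels are given as a description. Klk6 (chr7:43824499-43832030, plus strand, build GRCm38, the assembly also called mm10) stood at 1184 CPM in AEVs members and 1037 CPM in PBS members. The other mature oligodendrocyte nuclei, some of which carry Klk6 beside more Ptgds, had 276 and 187 CPM. Ptgds stood at 173 and 130 CPM in members, against 25911 CPM (AEVs) and 10630 CPM (PBS) in the others. Most members had more than the 1 Klk6 UMI that the rule asks. In the AEVs library 147 members had exactly 1, 141 had 2, 235 had 3 to 5 and 139 had 6 or more, and in the PBS library the numbers were 278, 209, 348 and 201. Just outside that threshold, 259 AEVs and 541 PBS nuclei met every other condition with 0 Klk6 UMIs. At the Ptgds threshold, 356 AEVs and 463 PBS members had exactly 1 UMI, while 277 AEVs and 203 PBS nuclei with Klk6 were left out for having exactly 2. The other conditions cut little, with 3 AEVs and 5 PBS members at the lowest allowed oligodendrocyte sum and 7 and 5 nuclei just outside it. At the leukocyte limit 24 AEVs and 34 PBS members had exactly 1 UMI, and 2 and 4 nuclei were just outside with 2.

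**Figure D1:**
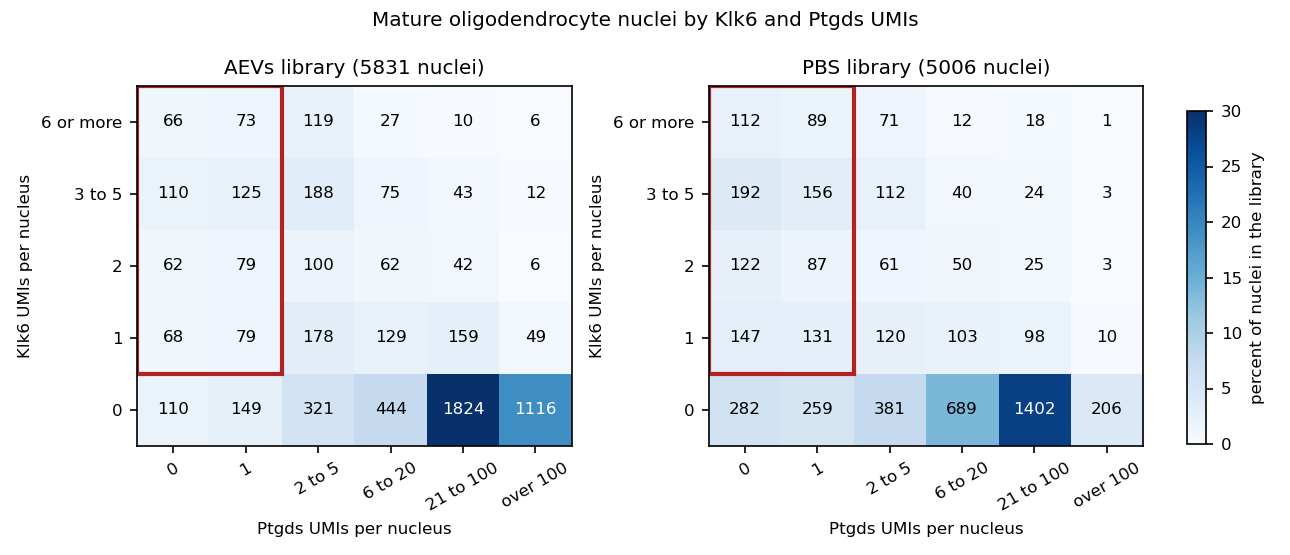
Mature oligodendrocyte nuclei by their Klk6 UMIs and Ptgds UMIs in the AEVs library (left) and the PBS library (right), with the number of nuclei in each cell of the grid. The rule takes nuclei with at least 1 Klk6 UMI and at most 1 Ptgds UMI, 662 in the AEVs and 1036 in the PBS library.

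A smaller share of mature oligodendrocyte nuclei were members in the AEVs library. They made up 11.4% (10.5 to 12.2) of these nuclei in the AEVs library and 20.7% (19.6 to 21.8) in the PBS library, which gives a share ratio of 0.549 (0.497 to 0.605). Of all nuclei of adequate quality they were 3.91% and 7.00%. The 2 genes of the rule contributed unequally to this ratio. Nuclei with any Klk6 UMI, whatever their Ptgds, were 32.0% of mature oligodendrocyte nuclei in the AEVs and 35.7% in the PBS library, a ratio of 0.897 (0.840 to 0.958). Nuclei with at most 1 Ptgds UMI, whatever their Klk6, were 15.8% in the AEVs and 31.5% in the PBS library, a ratio of 0.501 (0.462 to 0.544). Among Klk6-positive nuclei, 35.5% had at most 1 Ptgds UMI in the AEVs and 58.0% in the PBS library.

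The gap in Ptgds was present at every Klk6 level. Among nuclei with exactly 1 Klk6 UMI, 22.2% of the AEVs and 45.6% of the PBS nuclei had at most 1 Ptgds UMI. Among nuclei with 6 or more Klk6 UMIs, those values were 46.2% and 66.3%. Nuclei with 6 or more Klk6 UMIs, counted with any Ptgds, were 5.16% of mature oligodendrocyte nuclei in the AEVs and 6.05% in the PBS library.

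Depth and free RNA moved with this share. With every nucleus thinned to 1000 UMIs and 238 AEVs and 170 PBS nuclei left out as too shallow, members were 13.3% in the AEVs and 17.3% in the PBS library, a ratio of 0.768 (0.695 to 0.849). Klk6-positive nuclei with any Ptgds were then 21.3% and 22.2%, and their ratio of 0.961 had an interval of 0.884 to 1.04. Ptgds RNA reached nuclei of cells that do not make it in quantity. At least 2 Ptgds UMIs were found in 53.8% of AEVs and 36.8% of PBS neuronal nuclei, and in 25.2% of AEVs and 15% of PBS microglial nuclei. In Ptgds-type oligodendrocyte nuclei, defined here by at least 2 Ptgds UMIs and 0 Klk6 UMIs, the Ptgds level was 36059 CPM in the AEVs and 15102 CPM in the PBS library. Klk6 itself showed little free RNA. A Klk6 UMI was found in 3.83% of AEVs and 4.99% of PBS neuronal nuclei, whose median depths were 7247.5 and 9055 UMIs, and in 1.79% and 2.46% of microglial nuclei at 1540 and 1737 UMIs. The part of depth and of free Ptgds RNA in the lower AEVs share was not tested further, and fewer cells of the type cannot be told apart from a higher Ptgds level in cells that carry Klk6.

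Members differed from the other mature oligodendrocyte nuclei in the same direction in both libraries for many genes. Of 11713 genes with at least 50 UMIs over both sets of nuclei in each library, 240 were 2-fold or more higher in members in both libraries (2.05%), and 894 were 2-fold or more lower (7.63%). The genes of the rule are not among these, and the median log2 ratio of all genes was -0.01 in the AEVs and -0.07 in the PBS library. Because the rule split the nuclei by Klk6 and Ptgds in the same libraries, these counts describe the type and carry no test. The lower count was 255 after thinning, and 358 when oligodendrocyte nuclei of either set with more than 1 precursor marker UMI were left out. The higher count was 164 and 261 under the same settings.

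The other 6 genes of the Klk6-type list were all higher in members in both libraries. Hopx, a homeodomain protein that does not bind DNA itself, had log2 ratios of members over the other nuclei of 1.78 in the AEVs and 1.59 in the PBS library. S100b, a calcium-binding protein of glia, had 1.5 and 1.37. Anxa5, a phospholipid-binding annexin, had 1.37 and 1.07, and Mgst3, a microsomal glutathione transferase, had 1.23 and 1.53. Anln had 0.88 and 1.24, and Pmp22, a myelin protein best known from peripheral nerve, had 0.47 and 0.32. Of these genes, 4 in the AEVs and 5 in the PBS library were past 2-fold, beside 3.2% of all genes in either library.

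The list of the Ptgds type was split. Il33, a nuclear alarmin cytokine, was lower in members with log2 ratios of -2.98 (AEVs) and -2.43 (PBS), and Grm3, a metabotropic glutamate receptor, with -1.68 and -1.24. Car2, the carbonic anhydrase of oligodendrocytes, had -0.64 and -0.32. Apod, which is in this list, was instead higher in members, with 0.94 and 1.37. A gene listed with the Ptgds type was therefore more abundant in Klk6-positive nuclei in both libraries.

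Some of the genes named by rank set members apart more sharply than the list did. Art3, a member of the ADP-ribosyltransferase family, had 616 CPM in AEVs members and 292 CPM in PBS members, against 123 and 45.6 CPM in the other nuclei. In Ptgds-type nuclei Art3 stood at only 17.8 CPM (AEVs) and 7.16 CPM (PBS), and in nuclei with both Klk6 and at least 2 Ptgds UMIs at 340 and 128 CPM. Its level was thus high beside Klk6 also in nuclei that the Ptgds condition leaves out. Hmcn1, the extracellular matrix protein hemicentin 1, had 189 CPM in AEVs and 184 CPM in PBS members, against 33.3 and 31.0 CPM in the others. Lmo7, an actin-associated protein of cell junctions, had 79.6 and 80.9 CPM in members, against 18.0 and 10.6 CPM. Nuclei with both genes again held intermediate levels, at 91.3 and 91.8 CPM for Hmcn1 and 47.5 and 34.1 CPM for Lmo7.

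Regulators of transcription and of the cell cycle were among the higher genes. Nkx2-9, a homeobox transcription factor of the ventral neural tube, had 60.7 CPM in AEVs and 46.3 CPM in PBS members, against 10.8 and 6.69 CPM in the others. Cdkn1c, the cyclin-dependent kinase inhibitor p57, had 51.9 and 29.2 CPM, against 13.8 and 7.57 CPM. Rapgef5, an exchange factor for Rap GTPases, had 218 and 322 CPM, against 57.5 and 66.1 CPM. Scel, Clgn, Greb1l, Arfgef3, Efcc1 and Colgalt2 were the others among the 12 highest, with log2 ratios between 1.95 and 2.65. The lowest of them, Colgalt2, a collagen galactosyltransferase, had 47.1 and 36.2 CPM in members, against 12.2 and 7.66 CPM.

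The genes lower in members included surface proteins and a myelin protein. Kirrel3, an adhesion molecule of the immunoglobulin superfamily, had 55.8 CPM in AEVs and 54.2 CPM in PBS members, against 770 and 1007 CPM in the others. Opalin, a glycoprotein of the paranodal loops of central myelin, had 18.9 and 33.4 CPM, against 348 and 400 CPM. Synpr, a synaptic vesicle protein of the synaptophysin family, had 4.37 and 4.21 CPM, against 73.9 and 145 CPM. These are among the largest contrasts that did not use a gene of the rule. They narrowed when Klk6-positive nuclei with any Ptgds were taken, and the log2 ratio of the library nearer to 0 was then -1.83 for Kirrel3, -1.89 for Opalin and -2.61 for Synpr. Lrp4, a receptor for agrin, had 1.94 and 7.02 CPM in members, against 46.7 and 68.8 CPM in the others, and Hmgcll1, an enzyme related to 3-hydroxymethyl-3-methylglutaryl-CoA lyase, had 8.74 and 6.46 CPM, against 104 and 67.9 CPM. Vangl1, Tent5a and Kif21b completed the 8 lowest with 2 to 6 UMIs in AEVs members and 7 to 10 in PBS members.

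**Figure D2:**
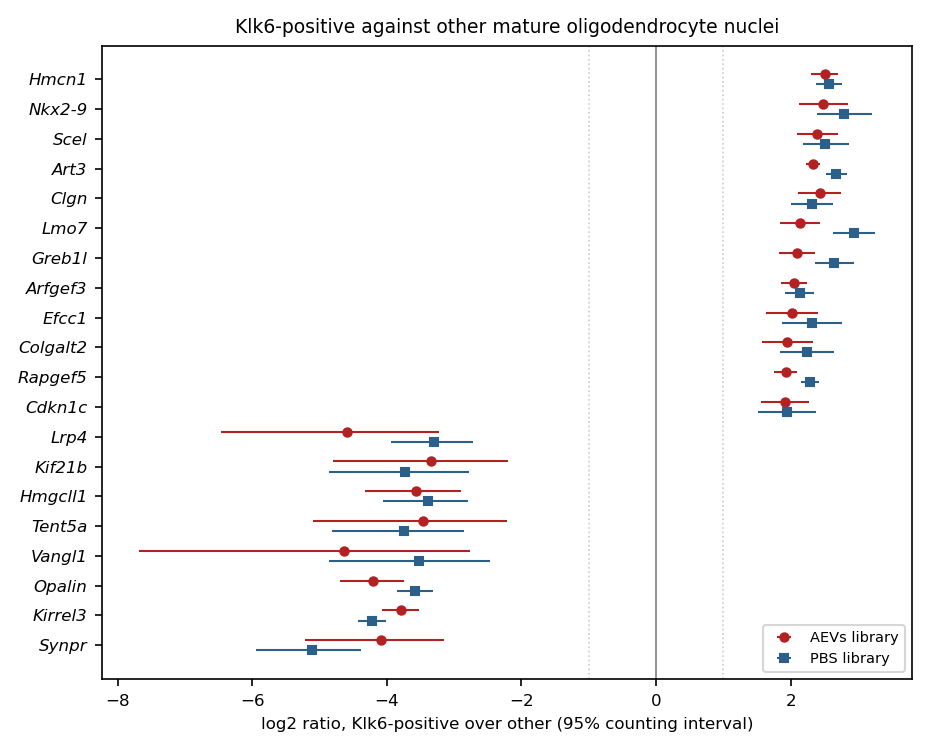
Log2 ratio of the level in Klk6-positive nuclei over that in the other mature oligodendrocyte nuclei, by gene, for AEVs nuclei and for PBS nuclei, with 95% counting intervals. The 12 genes highest and the 8 lowest by rank are shown. Hmcn1 lies on the higher side at 2.51 and 2.57, and Synpr on the lower side at -4.08 and -5.11.

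Myelin genes were mixed in members. Gal3st1, which makes the myelin lipid sulfatide, had log2 ratios over the other nuclei of 0.98 (AEVs) and 0.78 (PBS), and Hapln2, a link protein of the node of Ranvier, had 0.86 and 1.05. Cd9, a tetraspanin, had -3.07 and -2.28, and Tspan2, another tetraspanin of myelin, had -1.39 and -1.33. The gap junction gene Gjb1, connexin 32, had 1.14 and 0.67. Enpp6, a choline phosphodiesterase known as a marker of newly forming oligodendrocytes, had 1.48 and 1.62. Most genes listed for newly forming oligodendrocytes were lower in members, 9 of 11 measured in the AEVs and 11 of 12 in the PBS library. The median log2 ratios of that list were -0.43 and -1.335. Over the 17 myelin genes outside the rule the median was 0.15 in the AEVs and 0.00 in the PBS library.

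Genes that respond to glucocorticoids were lower in members than in the other nuclei. All 17 measured genes of this list were lower in the AEVs library, with a median log2 ratio of -0.98, and 16 of 17 in the PBS library, with a median of -0.78. At 2-fold or more, 8 were lower in the AEVs and 6 in the PBS library. Mt1, a metallothionein, had -1.59 and -1.52, Sgk1, a kinase induced by glucocorticoids, -1.18 and -0.97, and Hif3a -1.58 and -1.16. Over all genes, 10.9% were lower by 2-fold or more in the AEVs and 11.3% in the PBS library. Astrocyte and endothelial markers were lower in members as well. Astrocyte sums were 297 CPM in AEVs members against 805 CPM in the other AEVs nuclei, and 352 CPM in PBS members against 1022 CPM. Endothelial sums were 12.1 against 44.3 CPM in the AEVs and 23.6 against 60.9 CPM in the PBS library, and the part of such RNA in the list's level was not tested.

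Within members, some genes followed the number of Klk6 UMIs per nucleus, in nuclei grouped by 1, 2, 3 to 5 and 6 or more Klk6 UMIs. A deeper nucleus has more UMIs of any gene, and levels here are relative to the UMIs of the same nuclei. Hopx stood at 200, 336, 372 and 691 CPM in AEVs members, low to high Klk6, and at 107, 166, 192 and 282 CPM in PBS members. Grm3 ran the other way, at 419, 401, 143 and 61.6 CPM in AEVs members and 662, 469, 267 and 109 CPM in PBS members. In both libraries Hopx was thus highest and Grm3 lowest in the nuclei with the most Klk6. S100b was 474, 495, 679 and 1047 CPM in AEVs members and 583, 711, 827 and 983 CPM in PBS members. Anxa5 was 76.7, 93.7, 148 and 190 CPM in AEVs members and 90.2, 91.2, 103 and 165 CPM in PBS members. Anln was higher in members but did not climb with Klk6 inside them. It was 1550, 1281, 1297 and 1071 CPM in AEVs members and 1004, 1022, 993 and 1008 CPM in PBS members.

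**Figure D3:**
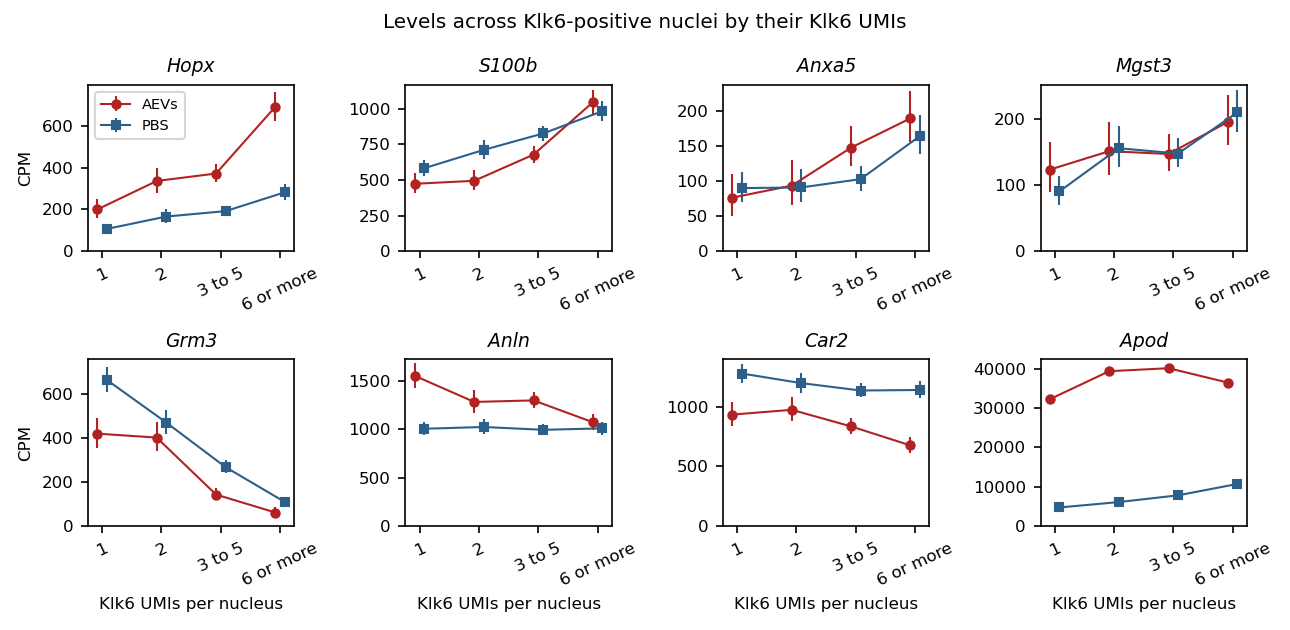
Level (CPM) of listed genes in members grouped by their Klk6 UMIs (1, 2, 3 to 5, 6 or more), in the AEVs and the PBS library, with 95% counting intervals. Hopx is highest, at 691 CPM (AEVs) and 282 CPM (PBS), and Grm3 lowest, at 61.6 and 109 CPM, in nuclei with 6 or more Klk6 UMIs.

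The next comparison set members of the AEVs library against members of the PBS library, that is, nuclei chosen by the same rule in each. The Ptgds condition kept 35.5% of Klk6-positive nuclei in the AEVs and 58.0% in the PBS library. The part of this selection in the differences was not tested. Of 9201 genes with at least 50 UMIs over both libraries, 311 were 2-fold or more higher in AEVs members (3.38%) and 182 were 2-fold or more lower (1.98%). Higher genes were thus 63.1% of those past 2-fold, but 41.2%, with 179 higher and 255 lower, when libraries were scaled by trimmed mean of M values (TMM), which moves every ratio by -0.15. The median log2 ratio of all genes was 0.12, and the ratios that follow are to be read against it.

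The most abundant gene that differed was Apod, a lipocalin that carries lipids and is induced in glia by injury and oxidative stress (chr16:31296192-31314808, minus strand). It stood at 37585 CPM (77449 UMIs) in AEVs members and 7505 CPM (26727 UMIs) in PBS members, a log2 ratio of 2.32 (2.30 to 2.34). At 1000 UMIs per nucleus, the median AEVs member held 37 Apod UMIs (quartiles 24 and 55) and the median PBS member 7 (4 and 11), so these quartiles did not overlap. In AEVs members Apod was similar at every Klk6 level, from 32260 to 40129 CPM, while in PBS members it was 4734, 6109, 7824 and 10715 CPM from the lowest to the highest Klk6. Apod was higher in AEVs nuclei outside members too. The ratio in Ptgds-type nuclei was 2.64, and Apod in nuclei of other cells was 311 CPM (AEVs) and 84.6 CPM (PBS) in neurons and 25684 and 8061 CPM in fibroblasts. The part of free Apod RNA in the ratio was not tested.

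Cdkn1a, the cyclin-dependent kinase inhibitor p21, stood at 336 CPM (693 UMIs) in AEVs members and 57.0 CPM (203 UMIs) in PBS members, a log2 ratio of 2.56 (2.33 to 2.79). It was found in 54.8% of AEVs and 13.6% of PBS members. Among the 742 AEVs and 835 PBS nuclei chosen again after thinning, it was found in 24.7% and 3.59%. The deeper neuronal nuclei had it in 11.9% (AEVs) and 7.18% (PBS), Schwann nuclei in 57.8% and 40.2%, and endothelial nuclei in 26.1% and 34.8%. Cdkn1a was also higher in AEVs nuclei of Schwann cells (1044 and 423 CPM), astrocytes (163 and 89.9 CPM) and precursors (125 and 50.8 CPM). The same held for neurons (19.7 and 10.3 CPM), microglia (44.3 and 25.6), macrophages (65.8 and 34.2), fibroblasts (124 and 55.9) and ependymal cells (196 and 61.0). It was lower in AEVs endothelial nuclei (272 and 442 CPM). Mural nuclei (29.9 and 80.7 CPM) held only 4 and 7 Cdkn1a UMIs, with overlapping intervals. The part of free Cdkn1a RNA in the ratio was not tested. The Cdkn1a level was 285, 315, 330 and 392 CPM from the lowest to the highest Klk6 group in AEVs members. In PBS members it was 29.2, 58.3, 60.2 and 77.0 CPM, below the AEVs level of the same group each time. Cdkn1a was among the genes chosen with earlier results of these data known. Of the 10 measured genes on the list of p53 targets to which it belongs, it was the 1 gene past 2-fold, with a list median of 0.19 beside 0.12 for all genes. Mdm2, the negative regulator of p53, had 0.18, Bax 0.31, Phlda3 -0.67 and Zmat3 -0.87. Under other settings Zmat3 was past 2-fold with TMM scaling (-1.02), Phlda3 with Ptgds at 0 (-1.21) and Ccng1, a cyclin, after thinning (1.17).

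The other genes named by rank as higher in AEVs members had ratios between 1.76 and 2.18. Hif3a, a hypoxia-inducible factor subunit, had 68.9 CPM (142 UMIs) in AEVs members and 16.3 CPM (58 UMIs) in PBS members, a log2 ratio of 2.08. Barx2, a homeobox factor, had 29.1 CPM (60 UMIs) and 6.46 CPM (23 UMIs), a ratio of 2.17. Phyhd1, a dioxygenase related to phytanoyl-CoA hydroxylase, had 165 and 38.2 CPM, a ratio of 2.11. Each of these genes was found in a minority of members, Phyhd1 in 35.3% of AEVs and 11.1% of PBS members. Nqo1, the quinone reductase of the oxidative stress response, had 52.4 and 15.4 CPM (1.76), and Gstp1, a glutathione transferase whose near-identical copies can share reads, had 67.0 and 17.4 CPM (1.94). Cirbp, a cold-inducible RNA-binding protein, had 79.6 and 22.7 CPM (1.81), and Mrpl41, of the mitochondrial ribosome, 144 and 41.6 CPM (1.79). Ccdc122, Stpg2 and Fam71e1, genes of 24 to 83 UMIs per library, had ratios of 2.18, 1.95 and 1.85. Vwa3b, at 43.2 and 10.7 CPM, had a ratio of 2.02 that was 0.59 after thinning.

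Among genes lower in AEVs members the largest ratio was that of March1, a membrane-bound ubiquitin ligase (chr8:65617900-66471637, plus strand). It stood at 69.4 CPM (143 UMIs) in AEVs members and 649 CPM (2312 UMIs) in PBS members, a log2 ratio of -3.23 (-3.48 to -2.98), and was found in 12.5% and 60.2% of them. In Ptgds-type nuclei the ratio was -1.43, and in Klk6-positive nuclei with any Ptgds -2.55. Precursors are the reference class with the highest March1 level, and the ratio among members with at most 1 precursor marker UMI was again -3.23. That limit was chosen after seeing the data, and the part of precursor RNA in the March1 difference was not tested.

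Of the other genes named by rank as lower in AEVs members, 4 are highest in precursors among the reference classes. Dcc, the netrin receptor, had 215 CPM in AEVs members and 773 CPM in PBS members, a log2 ratio of -1.85 (-1.99 to -1.70). Robo1, a receptor for Slit proteins, had 377 and 1143 CPM, a ratio of -1.60 (-1.71 to -1.49). Ninj2, an adhesion molecule induced in glia by nerve injury, had 34.9 and 118 CPM (-1.75), and Masp1, a protease of the lectin pathway of complement, had 18.0 and 62.9 CPM (-1.81). The precursor marker sum was lower in AEVs members, 31.5 against 170 CPM in PBS members. Among members with at most 1 precursor marker UMI their ratios were -1.83 for Dcc, -1.62 for Robo1, -1.76 for Ninj2 and -1.83 for Masp1, within 0.05 of those among all members. With that limit the number of genes 2-fold or more lower was 136 in place of 182, 320 were higher in place of 311, and Sema3d, a secreted semaphorin with 2.43 and 16.9 CPM, had a ratio of -1.08 in place of -2.80.

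Other genes named as lower in AEVs members have a reference class other than precursors as their highest. Piezo2, a mechanically gated channel, had 61.1 CPM (126 UMIs) in AEVs members and 251 CPM (895 UMIs) in PBS members, a log2 ratio of -2.04. Il33 had 21.4 CPM (44 UMIs) and 96.6 CPM (344 UMIs), a ratio of -2.18. Tppp, a tubulin-binding protein of myelinating oligodendrocytes, had 25.2 and 81.2 CPM (-1.69). Both types shared these differences, with ratios in Ptgds-type nuclei of -1.98 for Piezo2, -1.64 for Il33 and -1.09 for Tppp. Sorcs1, a sorting receptor, had 220 and 663 CPM (-1.59), and Slc9b2, a sodium and proton exchanger, had 3.88 CPM (8 UMIs) and 23 CPM (82 UMIs), a ratio of -2.57. Dach2, a transcriptional cofactor, had 15 and 55.9 CPM (-1.89), and Cachd1, a calcium channel partner, 32.5 and 108 CPM (-1.73). Cryab, the small heat shock protein alpha B-crystallin that is abundant in oligodendrocytes, had 406 and 841 CPM, a ratio of -1.05, against -1.86 in Ptgds-type nuclei.

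**Figure D4:**
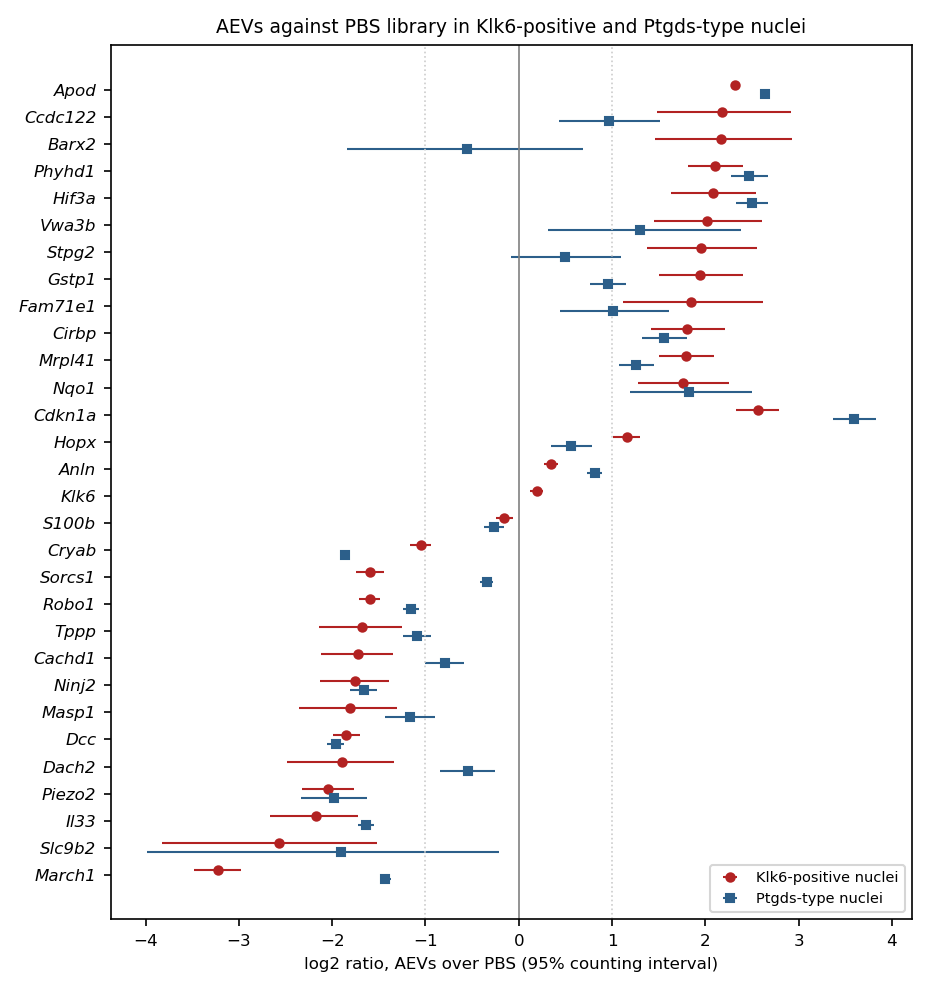
Log2 ratio of AEVs over PBS for named genes in Klk6-positive nuclei and in Ptgds-type nuclei, with 95% counting intervals. Apod (2.32 in Klk6-positive nuclei) and Cdkn1a (2.56) lie on the higher side and March1 (-3.23) is lowest. Barx2 stands at 2.17 in Klk6-positive nuclei and -0.55 in Ptgds-type nuclei, where it had fewer UMIs than the minimum for comparisons.

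Of the lists, the genes of the integrated stress response had the highest median. This pathway lowers protein synthesis under amino acid shortage or misfolded protein and induces the transcription factor ATF4 and its targets. Of 21 listed genes 10 had enough UMIs, 9 of them were higher in AEVs members and 6 were 2-fold or more higher, with 0 lower by 2-fold, beside 3.38% of all genes higher and 1.98% lower, and a median of 1.18 (0.94 to 1.25 over the alternatives tried), beside 0.12 for all genes. Cebpb, a bZIP factor, had 19.9 CPM in AEVs members and 2.81 CPM in PBS members (2.83). That ratio rests on few UMIs in PBS members and was 4.17 after thinning. Atf5 had 26.7 and 8.14 CPM (1.71), and Atf4 itself 51.9 and 21.3 CPM (1.28). Ddit4, an inhibitor of mTORC1, had 198 and 73.0 CPM (1.44), Mthfd2, a mitochondrial folate enzyme, 67.5 and 28.6 CPM (1.24), and Phgdh, which starts serine synthesis, 118 and 54.5 CPM (1.11). With TMM scaling 5 were past 2-fold, and Phgdh had 0.97. Cebpg had 0.98, Slc3a2 0.37, Psat1 0.27 and Vldlr -0.11. The other 11 listed genes had too few UMIs in members, such as Trib3 with 10 (AEVs) and 1 (PBS) and Nupr1 with 25 and 16. In Ptgds-type nuclei the same 10 genes had a median of 0.52 with 2 past 2-fold, beside 2.23% of all genes.

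The glucocorticoid list, lower in members than in other oligodendrocytes, was higher in AEVs than in PBS members. Of 15 measured genes 11 were higher and 3 were past 2-fold, beside 3.38% of all genes, with a median of 0.86. Sult1a1, a sulfotransferase, had 41 UMIs in AEVs members and 9 UMIs in PBS members (2.98), beside Hif3a (2.08) and Ddit4 (1.44). Mt1 had 678 and 351 CPM (0.95), Sgk1 625 and 325 CPM (0.94), and Fkbp5, a co-chaperone of the glucocorticoid receptor, 269 and 147 CPM (0.87). Errfi1, at 159 and 258 CPM, and Zbtb16, at 270 and 485 CPM, went the other way, with -0.70 and -0.84. In Ptgds-type nuclei the median was 1.11 and 10 of the 15 were past 2-fold, beside 2.23% of all genes. The list was chosen with earlier results of these data known, so its direction is not independent of them.

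Interferon-responsive genes had a median of 0.75 in members, from 11 measured of 21, with 10 higher and 4 past 2-fold, beside 3.38% of all genes. Ifit3 had 16.0 CPM in AEVs members and 5.05 CPM in PBS members (1.66), Bst2, the antiviral protein tetherin, 22.3 and 7.30 CPM (1.61), and Ddx60, an RNA helicase, 52.9 and 19.1 CPM (1.47). Irf9, a component of the complex that transmits the interferon signal, had 24.3 and 11.5 CPM (1.08), or 0.93 with TMM and 0.97 with median of ratios scaling. Rtp4, at 17 and 23 CPM, was on the other side with -0.44. In Ptgds-type nuclei 10 of the 11 were higher and the median was 0.43. There 0 were 2-fold or more higher, which is near the 2.23% of all genes. Ifit3 and Bst2 rest on low counts. The Ifit3 ratio was 0.49 with Ptgds at 0, 2.26 after thinning and 0.84 with any Ptgds, and that of Bst2 was 0.91 after thinning and 0.75 with any Ptgds. The 6 measured genes of class I antigen presentation had a median of 0.15. None were past 2-fold, beside 3.38% of all genes higher and 1.98% lower. H2-D1 and H2-K1, whose near-identical relatives can share reads, were both at 0.78.

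Myelin genes as a group were near the median of all genes. Of 20 genes, 17 of them outside the rule, 0 were past 2-fold, beside 3.38% of all genes higher and 1.98% lower. That count is near the share over all genes. The list median was 0.16 in members, or 0.01 with TMM scaling. Mbp, whose levels are given above, had a log2 ratio of -0.03. Cldn11, the claudin of myelin tight junctions, had 1957 and 1162 CPM (0.75), and Ugt8a, which makes galactosylceramide, had 465 and 839 CPM (-0.85). Cntn2, the axonal and glial contactin of the juxtaparanode, had 146 and 257 CPM (-0.82).

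In the list of axon guidance genes 15 of 20 measured genes were lower in AEVs members and 4 were lower by 2-fold or more, beside 1.98% of all genes, with a median of -0.33. With TMM scaling 8 were, and with median of ratios scaling 6. Beside Dcc, Robo1 and Sema3d these included Sema5a, at 136 CPM in AEVs members and 276 CPM in PBS members (-1.01). Unc5c, another netrin receptor, had 1015 and 1922 CPM (-0.92). Sema6a, a transmembrane semaphorin, was the gene past 2-fold in the other direction, at 92.7 and 37.6 CPM (1.30), or 0.84 with any Ptgds. In Ptgds-type nuclei the median was -0.50, with 3 lower and 0 higher by 2-fold or more, beside 1.14% and 2.23% of all genes.

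The remaining lists held few genes past 2-fold, beside 3.38% of all genes higher and 1.98% lower. The heat shock list had a median of -0.17, with Cryab lower and Hspb1, at 51.9 CPM in AEVs members and 24.7 CPM in PBS members (1.07), higher. Hspb1 was under 2-fold with TMM scaling, at 0.92. For cholesterol synthesis and efflux the median was 0.08, with Apoe, the main lipid carrier, at 1335 and 823 CPM (0.70). The 12 measured genes of disease-associated oligodendrocytes had a median of 0.31 with 1 past 2-fold in each direction, and the 10 of newly forming oligodendrocytes a median of -0.32 with Cnksr3, a scaffold protein, lower (-1.22). Iron genes had a median of 0.10, with the ferritin heavy chain Fth1 at 6416 and 4105 CPM (0.64). Clock genes had 0.36 and genes of potassium, chloride and gap junction transport -0.19, where Piezo2 was lower and Gjb1 had 481 and 302 CPM (0.67).

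Among the genes of proteases and their inhibitors, only 5 of 18 had enough UMIs. Klk8, neuropsin, another kallikrein, had 8.73 CPM (18 UMIs) in AEVs members and 14.9 CPM (53 UMIs) in PBS members. That AEVs over PBS ratio of -0.77 was 0.02 with nuclei weighted equally, so it had no stable direction. In members over the other nuclei, 4 genes of the list outside the rule had enough UMIs, and 4 were lower in the AEVs and 3 in the PBS library. Serpine2, an inhibitor of serine proteases, had log2 ratios of -2.06 (AEVs) and -1.53 (PBS). Between the libraries, Serpina3n, an inhibitor of serine proteases induced in injured glia, had 187 CPM in AEVs members and 147 CPM in PBS members (0.35). Of the genes that mark the Klk6 type, Hopx was past 2-fold between the libraries, at 423 CPM in AEVs members and 190 CPM in PBS members (1.16, or 0.97 after thinning), and Art3, named by its level in members, had 1.08, or 0.93 with TMM scaling.

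**Figure D5:**
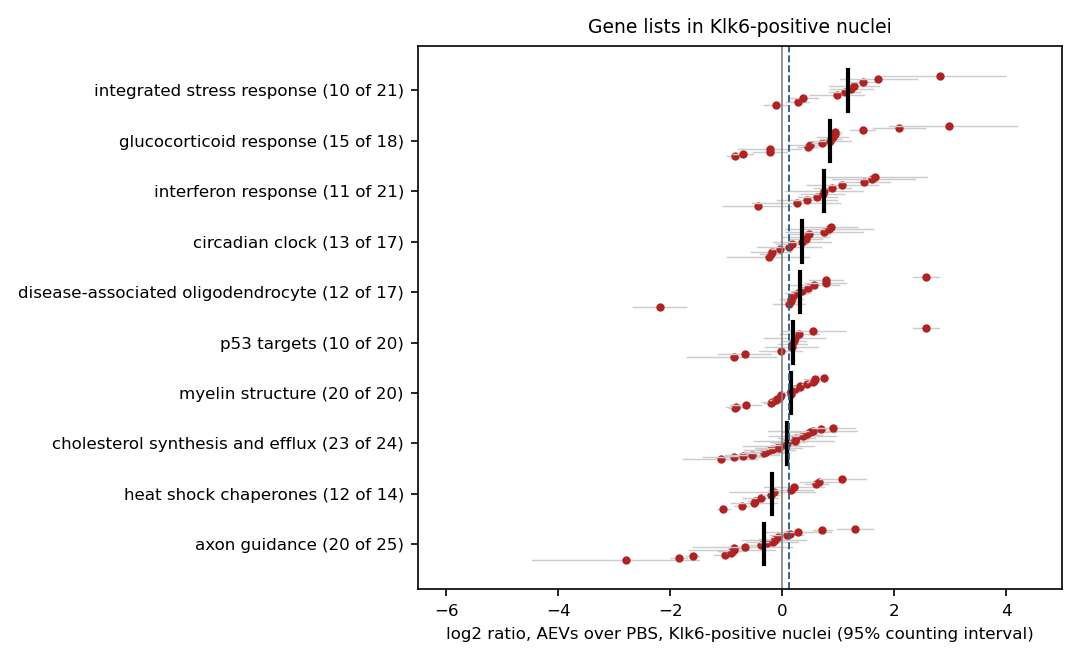
Log2 ratio of AEVs over PBS in Klk6-positive nuclei for each measured gene of 10 lists (points), with the list median (bar) and the median of all genes, 0.12 (line). The integrated stress response (median 1.18), glucocorticoid (0.86) and interferon (0.75) lists lie highest, and the axon guidance list has a median of -0.33.

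Promoter windows of the stress response and glucocorticoid lists were read for the binding motifs of their transcription factors. These lists had the highest median ratios between the libraries in members, 1.18 and 0.86. Even so, 1 of 10 measured stress response genes and 4 of 15 measured glucocorticoid genes were lower in AEVs members. RefSeq windows, from 250 bases before to 50 bases after a start site on build GRCm38.p6, were found for 20 of 21 stress response genes and 16 of 18 glucocorticoid genes. The motif TGATGNAA, the core of the element bound by ATF4 with C/EBP factors, was searched on both strands. It lay in 3.97% of all 32851 windows, or in a window of 4.51% of all genes, and in a window of 8 of the 20 genes, of which Vldlr alone had enough UMIs in members. None of the 6 genes past 2-fold had the letters in these windows. The glucocorticoid response element, here GNACA and TGTNC with 3 bases of any kind between them, is a palindrome bound by the glucocorticoid receptor. Searched on both strands, it lay in 0.475% of all windows, or in a window of 0.536% of all genes, and in a window of 3 of the 16 genes, Mt1, Sgk1 and Map3k6. The first 2 are shown because their levels in AEVs members, 678 and 625 CPM, were higher than in PBS members, 351 and 325 CPM, and Vldlr because its level, 150 CPM in AEVs members and 162 CPM in PBS members, was close in both. Each is written along the gene's strand with the motif, on either strand, in capitals: Mt1 at chr8:94178839-94179138 (plus strand), Sgk1 at chr10:21993640-21993939 (plus strand, 1 of 6 windows of this gene) and Vldlr at chr19:27216770-27217069 (plus strand, 1 of 2 windows).
Mt1: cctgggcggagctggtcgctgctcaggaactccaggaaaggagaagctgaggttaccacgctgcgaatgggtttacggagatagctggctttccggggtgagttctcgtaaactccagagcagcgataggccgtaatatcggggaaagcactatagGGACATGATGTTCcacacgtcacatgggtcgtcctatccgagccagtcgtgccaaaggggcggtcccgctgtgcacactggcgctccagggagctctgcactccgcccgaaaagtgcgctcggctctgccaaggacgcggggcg
Sgk1: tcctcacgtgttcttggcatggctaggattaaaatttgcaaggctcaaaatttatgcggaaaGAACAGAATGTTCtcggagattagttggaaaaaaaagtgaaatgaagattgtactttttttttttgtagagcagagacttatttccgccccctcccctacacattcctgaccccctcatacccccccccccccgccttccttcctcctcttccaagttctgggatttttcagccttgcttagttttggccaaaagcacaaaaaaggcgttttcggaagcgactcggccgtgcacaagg
Vldlr: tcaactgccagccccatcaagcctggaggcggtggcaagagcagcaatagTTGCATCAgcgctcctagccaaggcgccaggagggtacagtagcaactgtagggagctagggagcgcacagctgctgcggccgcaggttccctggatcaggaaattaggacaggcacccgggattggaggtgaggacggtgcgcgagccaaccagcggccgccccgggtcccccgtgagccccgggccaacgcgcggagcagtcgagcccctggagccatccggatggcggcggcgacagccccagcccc
In the Mt1 window the motif starts 94 bases before the start site and in the Sgk1 window 188 bases before it. A match describes the sequence and is not evidence of binding.

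The last comparison asked where the AEVs over PBS ratio differed between Klk6-positive and Ptgds-type nuclei of the same 2 libraries. There were 3705 AEVs and 2678 PBS nuclei of the Ptgds type, with median depths of 1891 and 2195.5 UMIs. Of 9144 genes measured in both types, the log2 ratio was higher by 1 or more in Klk6-positive nuclei for 112 (1.22%) and lower by 1 or more for 129 (1.41%). For scale, among these genes 204 (2.23%) were 2-fold or more higher in AEVs than in PBS nuclei of the Ptgds type and 104 (1.14%) were 2-fold or more lower. The median difference was 0.03.

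Among the higher differences was that of Nckap5, at 111 CPM (AEVs) and 132 CPM (PBS) in Klk6-positive nuclei, against 70.2 CPM (AEVs) and 291 CPM (PBS) in Ptgds-type nuclei, a difference of the log2 ratios of 1.80 (1.53 to 2.06). The libraries were thus close in Klk6-positive nuclei and apart in Ptgds-type nuclei. Btc, the growth factor betacellulin, had 22.8 and 21.6 CPM in Klk6-positive nuclei and 2.68 and 13.3 CPM in Ptgds-type nuclei, a difference of 2.39 that was 0.97 after thinning. As3mt and Prorsd1, with differences of 1.57 and 1.67, were at 0.75 and 0.17 after thinning. Barx2, higher in AEVs members, had 11 and 14 UMIs in Ptgds-type nuclei, together fewer than the minimum for comparisons. It is thus not among the genes measured in both types or ranked here. Its difference of 2.73 (1.39 to 4.06) is given as a description only.

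The lower differences were led by genes that were higher in AEVs Ptgds-type nuclei, with Grm7 as an exception. Ddc, aromatic amino acid decarboxylase, had 44.7 CPM (AEVs) and 48.0 CPM (PBS) in Klk6-positive nuclei and 366 CPM (AEVs) and 90.0 CPM (PBS) in Ptgds-type nuclei, a difference of -2.13 (-2.51 to -1.74). Tma16, a ribosome biogenesis factor, had 21.8 and 17.4 CPM in Klk6-positive nuclei and 371 and 81.1 CPM in Ptgds-type nuclei, a difference of -1.87 that was -0.83 after thinning. Tma16 (chr8:66473118-66486530, minus strand) lies next to March1 on the other strand, and whether reads were counted by strand is not given in the sources used here, so reads of one may be counted for the other. Grm7, a metabotropic glutamate receptor, had 46.1 and 332 CPM in Klk6-positive nuclei and 874 and 1589 CPM in Ptgds-type nuclei, a difference of -1.99 (-2.29 to -1.68), or -0.91 with any Ptgds. Tnfsf11, the cytokine RANKL, had 11.2 and 7.58 CPM in Klk6-positive nuclei, against 7.42 and 0.983 CPM, a difference of -2.36 on 7 UMIs in PBS Ptgds-type nuclei. Fbxo47, at 6.79 and 11.8 CPM in Klk6-positive nuclei and 8.39 and 2.53 CPM in Ptgds-type nuclei, had -2.53, or -1.22 after thinning. Of the genes that led the comparison within members, some had lower ratios in Klk6-positive nuclei, with differences of -1.80 (-2.05 to -1.55) for March1, -1.25 for Sorcs1 and -1.03 (-1.35 to -0.72) for Cdkn1a.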

How the data were processed

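RNA of nuclei was measured in 2 libraries, AEVs and PBS, each a pool of 3 mice, prepared from frozen cord with a SeekGene SeekOne DD 3′ droplet kit per the labels' protocols. The authors deposited a matrix of UMI counts for each library, with genes as rows and barcodes as columns, whole numbers that had not been normalised. Genome build mm10 and Seurat are named in the submitters' processing notes without versions. For the aligner, the use of strand in counting, and any removal of free RNA or doublets, the answer is not given in the sources used here.

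Members were taken by the thresholds on UMIs given in the report, and no clustering or batch integration was used. UMIs were summed per set of nuclei and library and divided by their total. Ratios carry exact conditional binomial intervals, shares exact Clopper-Pearson intervals and differences of log2 ratios normal intervals, each at 95% and limited to counting error. With 1 library per group no test, p-value or standard error was possible, and a gene is counted as past 2-fold by size alone. Comparisons used genes with at least 50 UMIs. For shares, levels and ratios after thinning, mature oligodendrocyte nuclei were thinned to 1000 UMIs and the Klk6 and Ptgds conditions were applied again. Thinned members, 742 AEVs and 835 PBS nuclei, are thus not the same set as members at full depth. Nuclei that Scrublet (scanpy 1.11.5) marked as doublets were kept, and leaving them out is an alternative. TMM factors came from edgeR 4.0.16 under R 4.3.3. Other steps used Python 3.11.15 with numpy 2.4.6, scipy 1.17.1 and pandas 2.3.3, and the scripts were tested on simulated data. Of 32285 gene identifiers 32235 were found in GENCODE release M21, which gave the coordinates.

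Named genes are the 12 highest and 8 lowest ratios of members over other oligodendrocytes, the 12 highest and 12 lowest AEVs over PBS ratios, and the 5 highest and 5 lowest differences between types. They needed at least 50 UMIs and, for ratios, a UMI in 5% of nuclei of the higher group, and a level there of at least 0.25 of the gene's highest level in any reference cell class, which limits free RNA. Cdkn1a is named outside that last condition. Mitochondrial, ribosomal protein, hemoglobin and predicted genes were left out. Genes of the rule and of the type lists, and up to 2 highest and 2 lowest members of each other list, could be named too. Further genes of the lists and genes with values in the marker check were named after their values were seen. The members, lists and named genes were chosen with earlier results of these data known. Results for some genes that met these conditions are not reported here.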

Additional observations from a re-analysis of the deposited data

Results flagged for a closer look

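Trf, the transferrin gene of oligodendrocytes, lay on opposite sides of equal levels in the 2 kinds of oligodendrocyte. Its AEVs over PBS log2 ratio was -0.06 in Klk6-positive nuclei, with 2901 CPM in AEVs members and 3029 CPM in PBS members, and 0.14 in Ptgds-type nuclei. The difference of the ratios was -0.20, and it was not tested, since each group has 1 library.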

How the results depend on the processing

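Counts of genes past 2-fold depended most on scaling, depth and the minimum number of UMIs. The 311 genes higher in AEVs members were 179 with TMM scaling, 202 with median of ratios scaling, 167 after thinning to 1000 UMIs, 654 with at least 20 UMIs and 154 with at least 100. The 182 lower were 96 after thinning, 343 with at least 20 UMIs and 116 with at least 100. Higher genes were 47.0% of those past 2-fold with median of ratios scaling, against 63.1% as reported. The 241 genes whose ratio differed between the types by 2-fold or more were 119 after thinning, 693 with at least 20 UMIs and 111 with at least 100. The 894 genes lower in members than in other oligodendrocytes were 539 with nuclei weighted equally, 255 after thinning, 342 with any Ptgds and 358 with at most 1 precursor marker UMI. The share ratio of 0.549 was 0.768 after thinning, 0.459 with Ptgds at 0 and 0.897 with any Ptgds. The cause was not tested, except that the UMI minimum sets how many genes enter. The 240 genes higher in members stayed within 1.5 times of that count under the alternatives run. The settings with any Ptgds and with the precursor limit were chosen after seeing the data.

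For named genes, 1614 of 1761 alternative AEVs over PBS ratios lay inside the counting interval of the reported ratio and 147 lay outside it. Of the 1761, 54 changed sign. A ratio inside its interval can still have crossed 2-fold. Of the 18 list medians, those for cholesterol, iron, proteases and immediate early genes changed sign under some alternative. No paired analysis was possible because each group has 1 library. Genes of few UMIs are limited by depth, since members held 2060652 UMIs (AEVs) and 3561393 UMIs (PBS).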
